A study of Mus musculus with 9 samples.

Results

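The genes described here are 41 genes of DNA replication and S-phase entry, chosen by symbol: origin licensing factors, the replicative helicase and its activators, polymerases, the sliding clamp and its loader, enzymes of the lagging strand and of nucleotide supply, and regulators of S phase. Of these, 40 were measured among 18193 genes, and Chaf1a was not analysed here. They were read on 9 Affymetrix mouse arrays in 3 groups of 3 arrays. Glioma stem cells (GSC) were grown from optic gliomas, taken from the optic nerve of Nf1+/-GFAP CKO mice that were 3 months old; the label names an astrocyte promoter, GFAP, and cells beyond the tumour keep a mutant Nf1 allele. Nf1-null neural stem cells (NSC) were taken from the third ventricle zone (TVZ) of Nf1flox/flox pups at postnatal day 1 and received a Cre virus, which deletes the floxed part of Nf1. Wild-type NSC came from the same kind of pups, carried the same floxed alleles and received a LacZ control virus. All groups were C57BL/6 cells kept in low-attachment dishes with N2, B27, FGF and EGF, both factors at 20 ng/ml. Tumour origin, tissue, age, virus and genotype thus all set GSC apart from the NSC, and Cre virus and Nf1 loss went together in the NSC. Independent cultures are stated for the NSC alone, so p-values measure the spread between these samples, which may be technical.

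A cell copies its DNA once in each cycle. In G1 the origin recognition complex, Cdc6 and Cdt1 load the MCM helicase onto origins. At the start of S phase Mcm10, Cdc45 and the GINS complex turn the loaded helicase into a moving fork, where polymerases work with the clamp Pcna. Transcription of many of these genes is periodic: E2F factors, held back by Rb1 and its relatives until cyclin-dependent kinases release them, drive it around the entry into S phase. Neurofibromin, the product of Nf1, restrains Ras, a pathway through which growth factors such as FGF and EGF promote that entry.

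Signals were linear intensities that had been scaled so that the trimmed mean was 1500 on every array, and array medians lay between 264.7 and 287.4. The deposited values carry no detection calls, so signals below those medians are treated as dim. The ratio of 3' to 5' Actb signal was 1.73 to 1.85 in GSC, 1.49 to 1.67 in Nf1-null NSC, against 1.87 to 1.88 in wild-type NSC, and its part in the results was not tested. Of the neural stem cell markers, 9 of 9 were brighter than the median gene, with summed signals of 241206.9 to 288181.4 in GSC, 259345.1 to 293130.7 in Nf1-null NSC, against 256527.8 to 340974.7 in wild-type NSC. Of the microglia and endothelial markers, 0 of 6 and 0 of 5 were brighter than the median gene. Astrocyte markers, 5 of 6 of them bright, summed to 62531 to 86900.5 in GSC, 73354.3 to 139793.9 in Nf1-null NSC, against 173728.1 to 204926.8 in wild-type NSC. Oligodendrocyte precursor markers, 6 of 6 bright, summed to 133336.5 to 145223.3, 86922.7 to 108002.8 and 117778.1 to 129537 in the same groups. Oligodendrocyte markers, 2 of 4 bright, spread over 26677.7 to 91948.9, 19667.2 to 43778.6 and 41438.4 to 62582.6 in these groups. Neuron markers, 1 of 5 bright, summed to 2333.5 to 3402.9, 1659.9 to 1988.8 and 2506.8 to 3819.1. Sums are set mostly by the brightest markers, and single markers could go the other way. S100b, of the astrocyte markers, was 17467.7, 34245.9 and 33524.6 in GSC, against 4451.4, 6913.8 and 11308.3 in wild-type NSC. Aldh1l1 was far lower in GSC, 660.4, 282.7 and 239.5 against 32418.4, 33105.9 and 43185.6 in wild-type NSC. So was Aqp4, 258.2, 117.6 and 66.2 against 21585, 15425.9 and 22502.1. The part of these markers in the results was not tested. Nf1 itself was 622.6, 600.1 and 548.9 in GSC and 430.3, 645.8 and 577 in Nf1-null NSC, against 1139.5, 919.5 and 999.9 in wild-type NSC.

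The replication genes were higher in GSC than in wild-type NSC as a body. All 40 log2 differences were positive, as were those of 43.9% of all genes, and 26 genes rose in the fit across all genes (limma, Benjamini-Hochberg adjusted p under 0.05), while 3.46% of all genes rose. The median difference was 1.76 on the log2 scale, 3.39-fold, and single genes ran from 0.31 for Fen1 to 4.09 for Tk1. The median of all genes was -0.09. For 38 of the 40 genes every GSC array lay above every wild-type array, against 13.9% of all genes; the other 2 were Fen1 and Tyms. In bulk samples such as these, more cells in S phase and more RNA per cell cannot be told apart.

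The 26 calls rested on few arrays. None of the 40 genes passed without wild-type NSC array 2 or without GSC array 2, 1 passed without GSC array 3, 2 without wild-type array 3 and 11 without GSC array 1. Of all 18193 genes, 1649 passed in either direction with every array. In those fits, in turn, 214, 217, 262, 458 and 1756 of all genes passed. The median difference of the 40 genes stayed between 1.61 and 2.12 with any single array left out. Single genes moved more: without wild-type array 1 the log2 difference was 3.75 for Mcm5, 3.75 for Rrm2, 3.39 for Clspn and 3.38 for Mcm6, and without wild-type array 2 it was 2.43 for Mcm5, 2.48 for Rrm2 and 2.06 for Clspn. With a mean-variance trend in the model 35 genes rose, against 6.16% of all genes. When each array was also left out the count was 26 to 36, beside 1269 to 2907 of all genes in either direction.

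Nf1-null NSC lay between the other groups. Against wild-type NSC, 39 of 40 differences were positive (44.5% of all genes), with a median of 1.31 on the log2 scale, 2.48-fold, against -0.06 for all genes. No gene passed in the fit across all genes (smallest adjusted p = 0.113, for Pola1 with limma), and the share of all genes that rose was 0%. At an unadjusted p under 0.05, 32 of the 40 were higher, against 7.42% of all genes. For 26 genes the 3 Nf1-null arrays all lay above the 3 wild-type arrays, against 9.75% of all genes. Under a model with a mean-variance trend 3 genes passed, Cdt1, Gins2 and Pola1, against 1.06% of all genes.

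Same-numbered NSC arrays varied together, which the labels do not state as a pairing but the data show. In the number 1, 2 and 3 pairs the median Nf1-null minus wild-type difference of the 40 genes was 1.10, 1.40 and 1.08. It was positive for 40, 39 and 38 genes. In 38 genes Nf1-null NSC were higher in all 3 pairs, against 20.9% of all genes. With the replicate number as a block 0 genes passed, and with the block and a mean-variance trend together 30 did, against 3.25% of all genes. Both comparisons above share the wild-type arrays.

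GSC and Nf1-null NSC were closer to each other. All 40 differences were again positive (46.8% of all genes), but the median was 0.62 on the log2 scale, 1.54-fold, against -0.04 for all genes. None of the 40 genes passed in limma (adjusted p 0.31 to 0.989), while 0.671% of all genes rose. At an unadjusted p under 0.05 the count was 0 as well, against 7.12% of all genes. With the replicate number as a block 0 genes passed, and with the block and a mean-variance trend together 4 did, Mcm2, Gins2, Prim1 and Lig1, against 2.81% of all genes. The numbers of GSC and Nf1-null arrays are not shown to pair. The arrays did not overlap for 6 genes, Orc6, Cdc45, Gins3, Prim2, Pcna and Chaf1b, against 9.24% of all genes. The intervals were wide: that of Ccne2, the largest difference at 1.15, ran from -0.05 to 2.35 on the log2 scale.

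**Figure D1:**
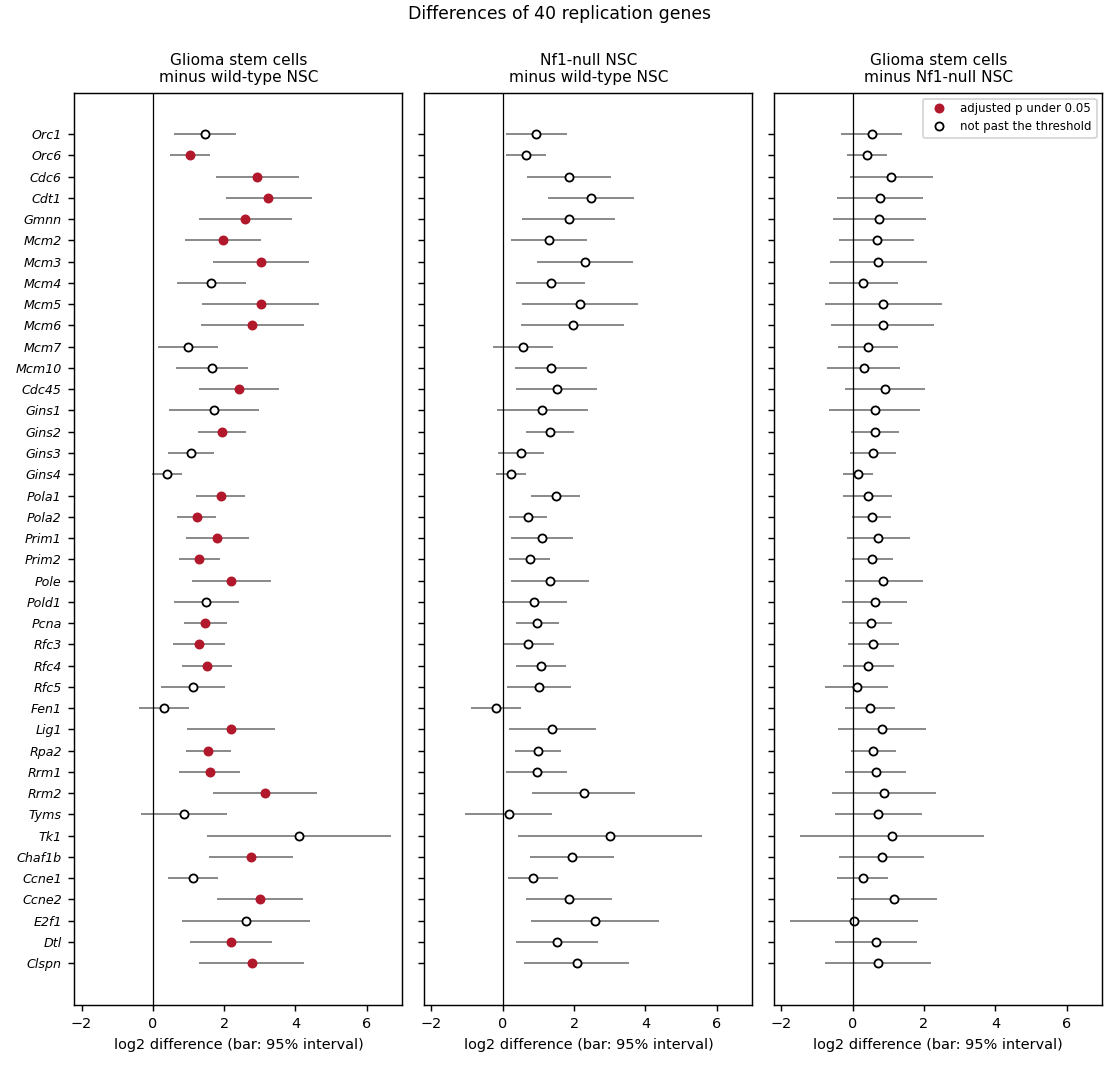
Log2 differences of the 40 genes for GSC minus wild-type NSC (left), Nf1-null NSC minus wild-type NSC (middle) and GSC minus Nf1-null NSC (right), with 95% intervals from the fit. Filled points are the 26 genes past an adjusted p of 0.05, all of them in the left panel; all but 1 of the points (Fen1, middle panel) lie right of 0.

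The genes also moved together from array to array within a group. Set against the wild-type mean of each gene, the median of the 40 genes was 2.16, 1.59 and 1.58 on GSC arrays 1, 2 and 3. It was 1.88, 1.06 and 0.91 on the Nf1-null arrays and 0.73, -0.42 and -0.20 on the wild-type arrays. Array 1 was the brightest of its group for 39, 40 and 37 of the 40 genes in GSC, Nf1-null and wild-type NSC. Over all genes it was brightest for 40.2%, 29% and 34.7%. The median SD within a group was 0.28 for these genes in GSC, 0.55 in Nf1-null NSC, and in wild-type NSC 0.68, compared with 0.18, 0.23 and 0.18 for the brighter 9097 genes. Within-group spread was thus wider here than for other bright genes, and widest in wild-type NSC. Leaving out array 1 of every group, an alternative chosen after seeing the data, left 18 rises in GSC over wild-type NSC. Of all 18193 genes 631 passed there, in either direction. In the other comparisons 0 of the 40 genes passed, beside 0 of all genes for Nf1-null over wild-type NSC and 130 for GSC over Nf1-null NSC.

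**Figure D2:**
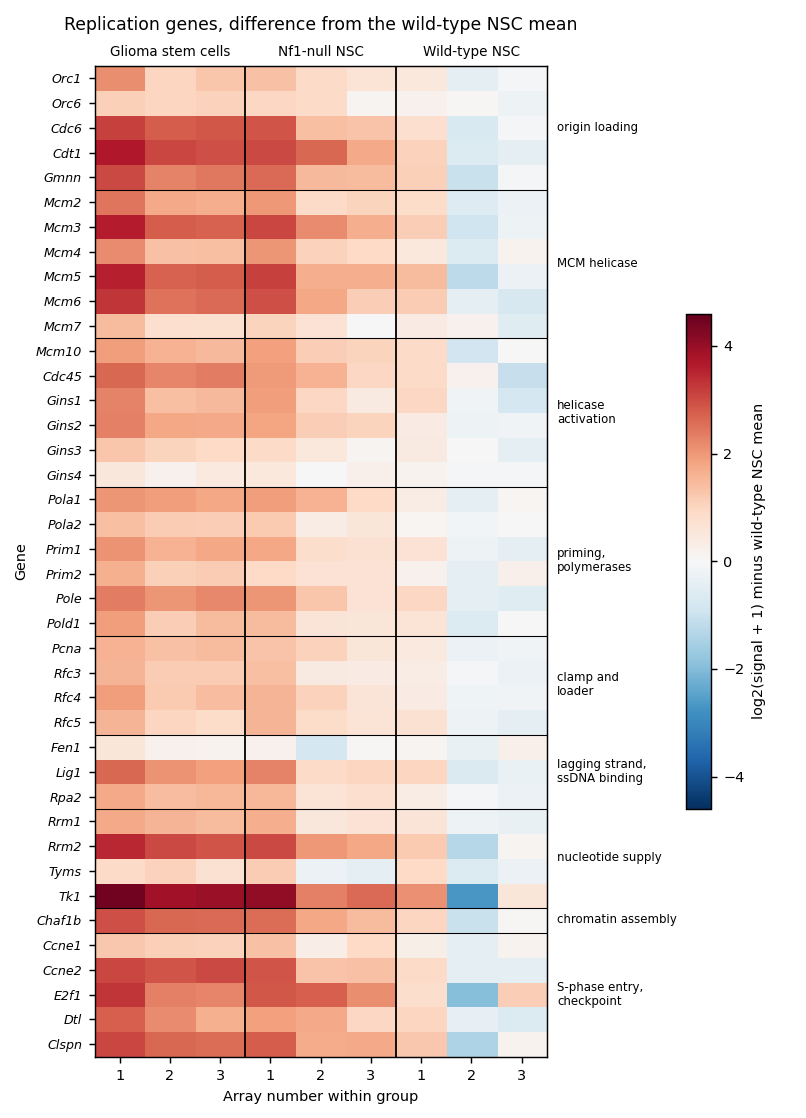
Heat map of log2(signal + 1) minus the gene's wild-type NSC mean, 1 row per gene grouped by role and 1 column per array, red for higher and blue for lower. GSC columns are red throughout, Nf1-null columns paler, and the first array of each group has the highest value for nearly all genes.

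**Figure D3:**
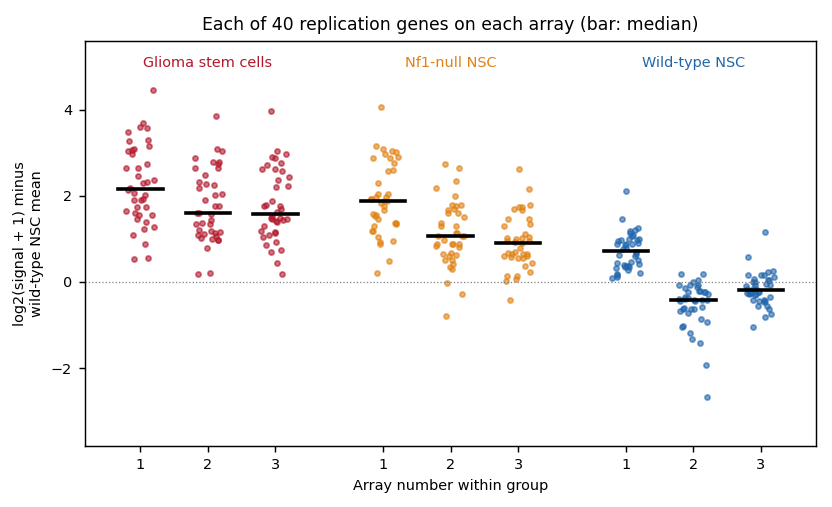
The same values as points, 40 genes on each array, with the median as a bar (vertical axis in log2 units, 0 is the wild-type NSC mean of each gene). Medians ran from 1.58 to 2.16 on GSC arrays, from 0.91 to 1.88 on Nf1-null arrays and from -0.42 to 0.73 on wild-type arrays, and those of Nf1-null and wild-type arrays did not overlap.

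Origin licensing comes first in the order of events. Cdt1, which brings the MCM helicase to origins and is destroyed once S phase begins, had signals of 9023.3, 5968.7 and 5457.7 in GSC, 5810, 4416 and 2346.2 in Nf1-null NSC, against 1469.7, 454.7 and 514.4 in wild-type NSC. Wild-type arrays lay below all others. It rose 9.48-fold in GSC over wild-type NSC (log2 difference 3.24, SE 0.52, adjusted p = 0.017 in limma). Nf1-null NSC exceeded wild-type NSC 5.59-fold (log2 difference 2.48, SE 0.52, adjusted p = 0.123; 0.032 with a mean-variance trend). Gmnn encodes geminin, the inhibitor of Cdt1, and its signals were 5588.3, 3288.4 and 3667 in GSC, 4087.3, 1913.7 and 1862.6 in Nf1-null NSC, against 1450.4, 332.3 and 643.2 in wild-type NSC. It rose 6.00-fold in GSC over wild-type NSC (adjusted p = 0.0331) and, like Cdt1, had its wild-type arrays below all others.

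Cdc6, the ATPase that works with Cdt1, had signals of 1793.8, 1401.5 and 1483.1 in GSC, 1499.5, 522.6 and 499.5 in Nf1-null NSC, against 342.4, 122.4 and 196.4 in wild-type NSC. Array 1 of the Nf1-null group was at the GSC level, while arrays 2 and 3 were well below it. Cdc6 rose 7.64-fold in GSC (log2 difference 2.93, SE 0.51, adjusted p = 0.0201) and was 3.61-fold higher in Nf1-null NSC over the wild type (adjusted p = 0.175). Of the origin recognition complex itself, Orc6 rose 2.08-fold in GSC over wild-type NSC (adjusted p = 0.0376). Orc1, the subunit that cycles in mammalian cells, was dim in wild-type NSC: 713.9, 317.9 and 396 in GSC, 408.3, 296.5 and 247.1 in Nf1-null NSC, against 229.1, 122.1 and 150.2 in wild-type NSC. Its 2.76-fold difference in GSC over wild-type NSC did not pass (adjusted p = 0.0505).

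Promoter sequence was available for 32 of the 40 genes as 36 windows in RefSeq's GRCm38.p6 table, each from 250 bases before to 50 after an annotated start. The windows were searched on both strands for the E2F core spelled TTCCCGC or, where its inner letters differ, TTGGCGC, or else TTCGCGC, or else TTGCCGC, and 23 of the 36, 63.9%, held at least 1, against 9.57% of all 32851 windows. Windows of 5 genes with a match, from different roles, are printed to show where the E2F cores lie. In each role the window with the most matches was taken, ties going by name, so they were not picked as typical. Capitals mark the matches, read 5' to 3' on the gene's strand. The Cdt1 window lies on the plus strand at chr8:122567765-122568064 and has 2 matches, both after the start.
Cdt1: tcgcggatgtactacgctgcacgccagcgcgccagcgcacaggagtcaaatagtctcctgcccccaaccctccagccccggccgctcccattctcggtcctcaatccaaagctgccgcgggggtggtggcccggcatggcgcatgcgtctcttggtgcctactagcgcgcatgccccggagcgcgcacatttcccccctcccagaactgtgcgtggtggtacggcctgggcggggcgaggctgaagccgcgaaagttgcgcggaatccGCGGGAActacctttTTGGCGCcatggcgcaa

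The MCM helicase is a ring of 6 related subunits, Mcm2 to Mcm7, that unwinds DNA ahead of the fork. Of the 6 genes 4 rose in GSC over wild-type NSC, Mcm2, Mcm3, Mcm5 and Mcm6, and Mcm4 and Mcm7 did not pass. Mcm5 had signals of 16724.7, 9335.7 and 9606 in GSC, 12482.1, 4488.4 and 4539.2 in Nf1-null NSC, against 3859.6, 617 and 1170.9 in wild-type NSC. No wild-type array reached the lowest array of either other group. Mcm5 rose 8.13-fold in GSC over wild-type NSC (log2 difference 3.02, SE 0.70, adjusted p = 0.0397), and it was 4.5-fold higher in Nf1-null NSC over the wild type (log2 difference 2.17, adjusted p = 0.201). Mcm3 was close in size, 8.19-fold in GSC over wild-type NSC (adjusted p = 0.0257) and 4.96-fold in Nf1-null NSC over the wild type (adjusted p = 0.161).

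Mcm6 had signals of 12501.7, 7276.2 and 7928.1 in GSC, 10129.4, 4438.8 and 2812.3 in Nf1-null NSC, against 2918.1, 958.7 and 770.1 in wild-type NSC. Only array 1 of wild-type NSC overlapped the Nf1-null range. It rose 6.94-fold in GSC over wild-type NSC (log2 difference 2.79, SE 0.62, adjusted p = 0.0351). Mcm7 had the smallest difference of the 6: its signals were 33767.3, 21213.6 and 20473.5 in GSC, 25362, 19362.6 and 12440.8 in Nf1-null NSC, against 15863.2, 14081.4 and 8419.7 in wild-type NSC. That is 1.98-fold in GSC over wild-type NSC (log2 difference 0.99, SE 0.36, adjusted p = 0.131) and 1.48-fold in Nf1-null NSC over the wild type (adjusted p = 0.471). Mcm4 lay between these, 3.11-fold in GSC over wild-type NSC (adjusted p = 0.0513). Whether subunits differ from each other was not tested.

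The Mcm6 window, on the minus strand at chr1:128359656-128359955, held 5 matches in 3 stretches, the most matches in these genes' 36 windows, because its first 4 matches are 2 pairs of overlapping cores on opposite strands. Its 2 CCAAT motifs lie in the same window.
Mcm6: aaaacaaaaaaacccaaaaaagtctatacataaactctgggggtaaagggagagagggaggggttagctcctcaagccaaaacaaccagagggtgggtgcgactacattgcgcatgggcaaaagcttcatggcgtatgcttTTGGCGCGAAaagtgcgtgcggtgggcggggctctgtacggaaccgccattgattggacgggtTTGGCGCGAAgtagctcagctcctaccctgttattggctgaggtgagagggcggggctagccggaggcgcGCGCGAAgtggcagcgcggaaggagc

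**Figure D4:**
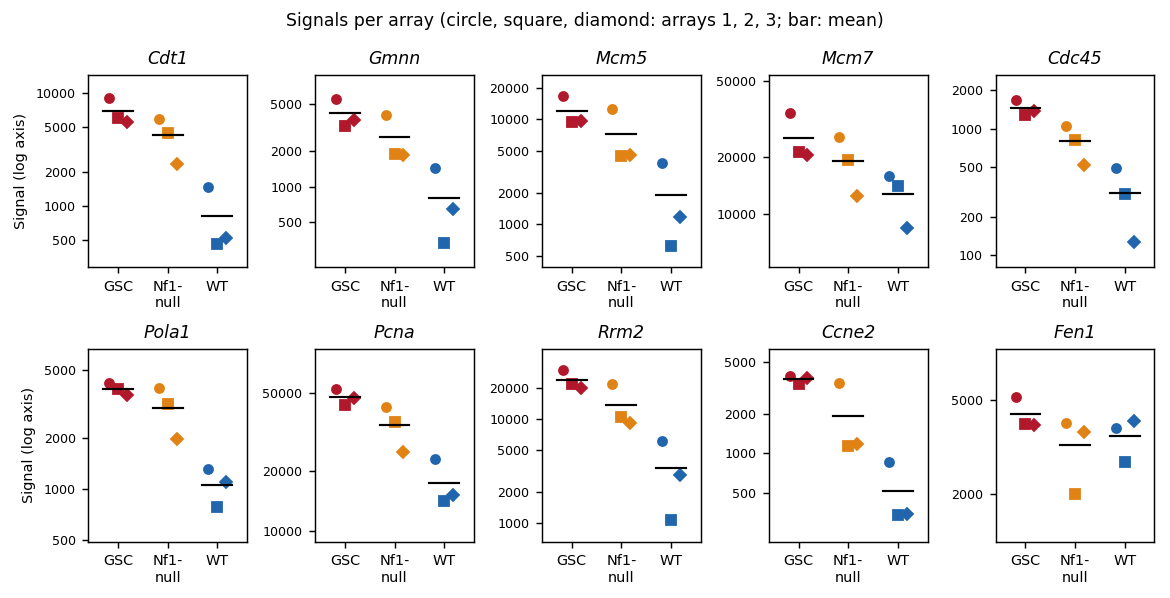
Signals of 10 genes on each array (log vertical axes, scaled per gene), with GSC, Nf1-null and wild-type NSC from left to right and the group mean as a bar. Wild-type arrays lie lowest for Cdt1, Gmnn, Mcm5, Cdc45, Pola1, Pcna, Rrm2 and Ccne2, while Fen1 overlaps in all groups.

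Of the genes of helicase activation, 2 rose in GSC over wild-type NSC. Cdc45, which joins the MCM ring to form the active helicase, had signals of 1668.3, 1284.9 and 1376.5 in GSC, 1055.1, 814.7 and 518.1 in Nf1-null NSC, against 490.8, 304.6 and 128.3 in wild-type NSC. The 3 groups did not overlap at all. Cdc45 rose 5.34-fold in GSC over wild-type NSC (log2 difference 2.42, SE 0.48, adjusted p = 0.0281). Its second, dimmer probe set gave log2 differences of 0.37 in GSC and -0.62 in Nf1-null NSC over wild-type NSC. The call was lost with the mean of all probe sets. The GINS complex completes the same helicase, and only its subunit Gins2 rose in GSC over wild-type NSC, 3.85-fold, with the smallest adjusted p of the 40 genes (0.0147). Gins2 signals were 4084.4, 2793.2 and 2768.3 in GSC, 2907.8, 1818.1 and 1665.6 in Nf1-null NSC, against 1079.1, 703.4 and 729.7 in wild-type NSC. It was 2.51-fold higher in Nf1-null NSC over the wild type (adjusted p = 0.131; 0.0404 with a mean-variance trend).

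The other GINS subunits differed less or more variably in GSC over wild-type NSC: Gins1 3.28-fold (adjusted p = 0.0951), Gins3 2.10-fold (adjusted p = 0.0522) and Gins4 1.31-fold (adjusted p = 0.224). Gins4 signals lay at 4088.2, 3267.6 and 3877.5 in GSC, 4000.8, 2811.1 and 3353.6 in Nf1-null NSC, against 3159.4, 2712.7 and 2685.7 in wild-type NSC. Its GSC arrays stood just above the wild-type ones, and its Nf1-null arrays overlapped them. Mcm10, which helps activate the assembled helicase, was 3.16-fold higher in GSC over wild-type NSC (adjusted p = 0.0565) and 2.55-fold in Nf1-null NSC over the wild type (adjusted p = 0.201).

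Among the polymerase genes 5 of 6 rose in GSC over wild-type NSC. Pola1 encodes the catalytic subunit of DNA polymerase alpha, which with primase makes the primers of every new strand. Its signals were 4191.5, 3887.5 and 3575.5 in GSC, 3933.7, 3154 and 1963.6 in Nf1-null NSC, against 1306.9, 780.7 and 1092.5 in wild-type NSC. Wild-type arrays lay apart from both other groups, and the Nf1-null arrays overlapped the GSC range. Pola1 rose 3.74-fold in GSC over wild-type NSC (log2 difference 1.90, SE 0.29, adjusted p = 0.0162). Nf1-null NSC exceeded wild-type NSC 2.79-fold (log2 difference 1.48, SE 0.29, adjusted p = 0.113; 0.0288 with a mean-variance trend).

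The rest of the primer-making complex also rose in GSC over wild-type NSC: its second polymerase subunit Pola2 2.34-fold (adjusted p = 0.0244), and the primase subunits Prim1 3.51-fold (adjusted p = 0.0309) and Prim2 2.46-fold (adjusted p = 0.0246). Dimmer probe sets of Pola2 gave log2 differences of -0.71 and -0.11 there. The calls of Pola2 and Prim2 were lost with the mean of all probe sets. Pole, the catalytic subunit of the leading-strand polymerase epsilon, rose 4.59-fold (adjusted p = 0.0326). Pold1, the catalytic subunit of the lagging-strand polymerase delta, was 2.83-fold higher and did not pass (adjusted p = 0.0551). In Nf1-null NSC over the wild type these 5 genes were 1.62-fold to 2.52-fold higher. The Pola1 window, on the minus strand at chrX:93632106-93632405, held 4 separate matches, the most stretches in these windows, 3 of them before the start.
Pola1: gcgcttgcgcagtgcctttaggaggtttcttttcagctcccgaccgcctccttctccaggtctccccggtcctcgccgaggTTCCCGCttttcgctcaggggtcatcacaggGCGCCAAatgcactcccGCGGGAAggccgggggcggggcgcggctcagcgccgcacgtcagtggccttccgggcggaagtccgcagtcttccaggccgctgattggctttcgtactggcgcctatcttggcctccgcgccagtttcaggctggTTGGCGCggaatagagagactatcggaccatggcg

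Pcna is the ring that holds polymerases on DNA, and the Rfc genes encode subunits of the loader that opens it. Pcna signals were 52114.8, 43249.3 and 46819.1 in GSC, 42143.8, 35533 and 24928.7 in Nf1-null NSC, against 23191.7, 14097 and 15209.3 in wild-type NSC. The groups did not overlap. Pcna rose 2.77-fold in GSC over wild-type NSC (log2 difference 1.47, SE 0.26, adjusted p = 0.0223) and was 1.96-fold higher in Nf1-null NSC over the wild type (log2 difference 0.97, adjusted p = 0.174). Against Nf1-null NSC, GSC were 1.41-fold higher (log2 difference 0.50, interval -0.11 to 1.11, adjusted p = 0.401). Rfc4 and Rfc3 rose in GSC over wild-type NSC, 2.86-fold and 2.45-fold (adjusted p = 0.0285 and 0.0429). Rfc5 was 2.18-fold higher and did not pass (adjusted p = 0.110), and its means were 2856 ± 774 in GSC and 2694 ± 979 in Nf1-null NSC, against 1360 ± 617 in wild-type NSC (SD, n = 3 each).

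On the lagging strand, short fragments are trimmed by the nuclease Fen1 and joined by the ligase Lig1. Lig1 had signals of 6159.3, 4076.8 and 3628 in GSC, 4814.5, 1797.8 and 1965 in Nf1-null NSC, against 1926.4, 616.6 and 797.3 in wild-type NSC. It rose 4.58-fold in GSC over wild-type NSC (adjusted p = 0.0440). Fen1 stood apart from the rest, with 5145.1, 3953.7 and 3922.2 in GSC, 3997, 2003.7 and 3647.3 in Nf1-null NSC, against 3784.6, 2728 and 4079.1 in wild-type NSC. All groups overlapped, and its log2 difference was 0.31 in GSC (SE 0.30, adjusted p = 0.568) and -0.18 in Nf1-null NSC (adjusted p = 0.809), both against wild-type NSC.

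That result for Fen1 depended on the probe set. Its second, dimmer probe set gave 2785.7, 2678.5 and 2561.8 in GSC, 2280.4, 492.4 and 758.9 in Nf1-null NSC, against 712.5, 361.2 and 487.8 in wild-type NSC. There the log2 differences were 2.41 in GSC and 0.92 in Nf1-null NSC over wild-type NSC, in the range of the other genes. Which of the probe sets reports the transcript better was not tested. Rpa2, a subunit of the protein that coats single-stranded DNA, rose 2.96-fold in GSC over wild-type NSC (adjusted p = 0.0209) and was 1.97-fold higher in Nf1-null NSC over the wild type (adjusted p = 0.176).

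Rrm1 and Rrm2 encode the large and small subunits of ribonucleotide reductase, which makes deoxyribonucleotides. Rrm2 had signals of 29610.7, 21892.1 and 19895.6 in GSC, 21555.4, 10544.7 and 9217 in Nf1-null NSC, against 6113.5, 1056.8 and 2889.7 in wild-type NSC. No wild-type array reached the other groups. Rrm2 rose 8.84-fold in GSC over wild-type NSC (log2 difference 3.14, SE 0.62, adjusted p = 0.0278), against 3.00-fold for Rrm1 (log2 difference 1.59, SE 0.37, adjusted p = 0.0390). Between the NSC groups they were 4.82-fold and 1.93-fold higher in Nf1-null NSC (adjusted p = 0.175 and 0.257).

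Tk1, the thymidine kinase of the salvage route, had the largest log2 difference of the 40 genes in GSC over wild-type NSC with all arrays, and did not pass. Its signals were 4006.8, 2636 and 2873 in GSC, 3067.7, 919.8 and 1115.9 in Nf1-null NSC, against 786.3, 27.5 and 270.8 in wild-type NSC. The wild-type arrays ranged from far below the array median to well above it, which set the SE of 1.11 on a log2 difference of 4.09 in GSC over wild-type NSC (17.1-fold, adjusted p = 0.0612). Without wild-type array 2 the Tk1 difference was 2.75 (adjusted p = 0.0873 in limma), below the 2.93 of Cdt1, and without wild-type array 1 it was 5.15 (adjusted p = 0.0393). Against Nf1-null NSC the GSC difference was 1.09 with an interval from -1.49 to 3.67. Tyms, the enzyme of thymidylate synthesis, lay near or below the array medians and overlapped in all groups, with 280.1, 316.4 and 247.5 in GSC, 342.5, 125 and 113.3 in Nf1-null NSC, against 286.5, 96.9 and 125.3 in wild-type NSC (log2 difference 0.88, adjusted p = 0.329 in GSC over wild-type NSC). A dimmer Tyms probe set, below the array medians throughout, gave log2 differences of 1.69 in GSC and 1.74 in Nf1-null NSC over wild-type NSC. There the wild-type arrays lay below all others. The Rrm1 window, on the plus strand at chr7:102441445-102441744, held 1 match, as did that of Rrm2, and 2 CCAAT motifs.
Rrm1: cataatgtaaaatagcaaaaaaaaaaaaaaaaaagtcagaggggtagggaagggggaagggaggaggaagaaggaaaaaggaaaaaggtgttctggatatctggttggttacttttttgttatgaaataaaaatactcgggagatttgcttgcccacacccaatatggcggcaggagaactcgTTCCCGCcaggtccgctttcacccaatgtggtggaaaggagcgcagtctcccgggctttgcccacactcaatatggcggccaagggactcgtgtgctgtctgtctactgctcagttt

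Chaf1b, a subunit of the factor that places histones on new DNA, had signals of 1539.5, 1228 and 1197.1 in GSC, 1168.3, 673.7 and 535.5 in Nf1-null NSC, against 386.3, 93.9 and 201.6 in wild-type NSC. The groups did not overlap. It rose 6.73-fold in GSC over wild-type NSC (log2 difference 2.75, SE 0.51, adjusted p = 0.0238) and was 3.84-fold higher in Nf1-null NSC over the wild type (adjusted p = 0.166). A dimmer probe set of Chaf1b gave log2 differences of 0.38 and -0.35 in the same comparisons. The call was lost with the mean of all probe sets.

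Of the regulators, the E-type cyclins activate Cdk2 at the G1/S transition, and the pair differed in size. Ccne2 had signals of 3931.5, 3406 and 3780.7 in GSC, 3473.5, 1137.2 and 1174.6 in Nf1-null NSC, against 854.5, 337.7 and 341.4 in wild-type NSC. GSC arrays were close together, while Nf1-null array 1 lay at the GSC level and arrays 2 and 3 nearer wild-type array 1. Ccne2 rose 7.99-fold in GSC over wild-type NSC (log2 difference 3.00, SE 0.52, adjusted p = 0.02) and was 3.61-fold higher in Nf1-null NSC over the wild type (adjusted p = 0.176). Ccne1 was 2.18-fold and 1.80-fold higher in the same comparisons and did not pass (adjusted p = 0.0597 and 0.229). Its means were 1377 ± 89.1 in GSC, 1189 ± 426 in Nf1-null NSC, against 643.2 ± 156 in wild-type NSC (SD, n = 3 each).

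E2f1, the activator E2F that drives many of these genes, was below the array medians in wild-type NSC alone. Its signals were 664.6, 338 and 315.9 in GSC, 494.1, 450.4 and 300.1 in Nf1-null NSC, against 116, 16.6 and 148.8 in wild-type NSC. GSC and Nf1-null NSC overlapped, and wild-type NSC lay below both. The log2 differences were 2.62 in GSC (SE 0.77, adjusted p = 0.0771) and 2.59 in Nf1-null NSC (adjusted p = 0.188) over wild-type NSC, and 0.03 between GSC and Nf1-null NSC (interval -1.77 to 1.83). Without wild-type array 2 the E2f1 difference in GSC over wild-type NSC was 1.65. Clspn, which couples the fork to the checkpoint kinase Chek1, rose 6.82-fold in GSC over wild-type NSC (adjusted p = 0.0385). Dtl, the ubiquitin ligase adaptor that marks Cdt1 for destruction, rose 4.53-fold (log2 difference 2.18, SE 0.50, adjusted p = 0.0374). Its signals were 2943, 2000.2 and 1360.8 in GSC, 1621.5, 1496.4 and 848.1 in Nf1-null NSC, against 880.4, 339.8 and 286.4 in wild-type NSC, and Nf1-null array 3 fell below wild-type array 1. The Dtl window, on the minus strand at chr1:191575495-191575794, held 2 matches, the nearer of them ending at the base before the start.
Dtl: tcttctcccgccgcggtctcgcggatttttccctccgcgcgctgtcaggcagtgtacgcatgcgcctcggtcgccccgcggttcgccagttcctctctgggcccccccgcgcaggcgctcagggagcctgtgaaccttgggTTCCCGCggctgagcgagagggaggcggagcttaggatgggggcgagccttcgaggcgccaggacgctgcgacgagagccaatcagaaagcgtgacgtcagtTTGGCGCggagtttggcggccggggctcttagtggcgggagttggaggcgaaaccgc

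Across the promoter windows of these genes there were 41 matches to the E2F core, in 36 separate stretches since some overlap. Of the 41, 26 began within 50 bases of the start, 63.4% against 37.2% of the matches in all windows, with a median position of -27. Of the 32 genes, 21 had at least 1 match, 10 had 2 or more and 5 had 3 or more, in 1 window. CCAAT on either strand was in 55.6% of the genes' windows and 37.4% of all windows. The core of the cell cycle homology region, TTTGAA, typical of genes of G2 and mitosis, was in 11.1% and 17.9%. The windows of these genes were also richer in G and C, with a median of 59.0% against 52.7%, and its part in the E2F share was not tested. The 11 genes with no match, among them Pcna, E2f1, Tk1 and Mcm2, did not differ less throughout: their median difference in GSC over wild-type NSC was 1.47 (0.88 to 4.09), against 1.90 (0.31 to 3.24) for the 21 genes with a match. In Nf1-null NSC over the wild type the medians were 1.39 with a match and 1.02 without. These are descriptions, and a missing match says only that the letters are absent from that window.

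**Figure D5:**
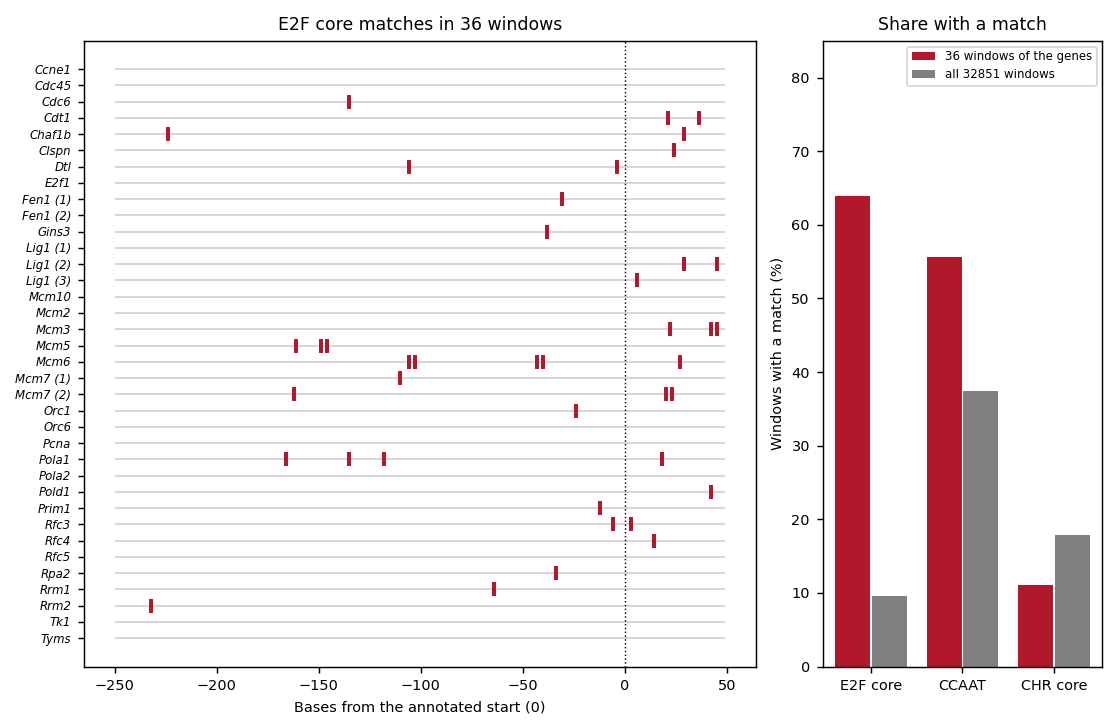
Left, positions of E2F core matches (ticks) in the 36 windows of 32 genes, in bases from the annotated start at 0, with 1 row per window. Right, share of windows holding each motif in these genes (red) and in all 32851 windows (grey): 63.9% against 9.57% for the E2F core, 55.6% against 37.4% for CCAAT and 11.1% against 17.9% for the core of the cell cycle homology region.

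Other probe sets gave mostly the same direction. Of the 40 genes 30 had further probe sets, 50 in all, of which 46 were positive in GSC over wild-type NSC, 46 in Nf1-null NSC over the wild type and 43 in GSC over Nf1-null NSC. Median log2 differences of the 50 were 1.58, 0.96 and 0.59. The 22 of them that were bright were positive in all 3 comparisons, with medians of 1.96, 1.16 and 0.66. Bright meant a mean log2 signal of at least 9.27 over all arrays, so high GSC and Nf1-null signals helped a probe set to pass. That of Rpa2 passed at 9.3, with signals of 380.2, 345.6 and 376 in wild-type NSC. The direction of the 22 is thus partly set by this cut and is no separate support. Other probe sets of a gene read the same RNA, so they check the measurement and not the samples. With the mean of all probe sets, 22 of the 40 genes passed in GSC over wild-type NSC, beside 1083 of all genes in either direction. Calls lost there were those of Mcm6, Cdc45, Pola1, Pola2, Prim2, Lig1 and Chaf1b.

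A second list of 76 genes of replication and S-phase entry, none of them among those above, gave a more mixed account; 74 were measured. In GSC over wild-type NSC 59 were positive, 23 rose, 1 fell and 50 did not pass (over all genes, 43.9% were positive, 3.46% rose and 5.6% fell), with a median log2 difference of 0.75. In Nf1-null NSC over the wild type 64 were positive and 0 passed, with a median of 0.59, and in GSC over Nf1-null NSC 51 were positive and 0 passed, with a median of 0.17. The histone chaperone gene Asf1b had the smallest adjusted p in GSC: its signals were 2310.6, 2145.1 and 2724.2 in GSC, 1665.7, 1171.9 and 1088.9 in Nf1-null NSC, against 622, 334 and 517.4 in wild-type NSC. The groups did not overlap, and it rose 5.0-fold in GSC over wild-type NSC (adjusted p = 0.00908). The fork protection gene Timeless rose 4.66-fold (adjusted p = 0.0164), Pole4 of polymerase epsilon 2.38-fold (adjusted p = 0.00961), Shmt1 of the thymidylate cycle 3.27-fold (adjusted p = 0.0179) and Mcm8 2.08-fold (adjusted p = 0.0187). Mcm8, a relative of the helicase subunits that acts in recombination, had signals of 1092.5, 922.2 and 793.7 in GSC and 1040.4, 1072.7 and 832.9 in Nf1-null NSC, which overlapped, against 467.8, 433.1 and 434.3 in wild-type NSC. In Nf1-null NSC over the wild type Mcm8 and Pole4 had the smallest adjusted p of the list (0.0825 each), and Hells, a chromatin remodeller, was 4.47-fold (adjusted p = 0.115) and Cdca7, its partner, 3.07-fold higher (adjusted p = 0.114).

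Not all of that list promotes replication. Cdkn1a encodes p21, an inhibitor of cyclin-dependent kinases and of Pcna, and its signals were 22677.2, 34392 and 30939.5 in GSC, 12944.8, 21392.6 and 18296.5 in Nf1-null NSC, against 4489.7, 5472.9 and 10829.4 in wild-type NSC. It rose 4.49-fold in GSC over wild-type NSC (log2 difference 2.17, SE 0.36, adjusted p = 0.0194), with no overlap of the groups, and array 1 was its lowest array in each group, where it was the highest for nearly all the replication genes. Rb1, which restrains E2F factors and was named after its values were seen, was the gene that fell: 6153.1, 5537.3 and 5376.9 in GSC and 6482.5, 5362.7 and 7345.3 in Nf1-null NSC, against 8798.7, 9971.4 and 10127 in wild-type NSC. Its log2 difference was -0.76 in GSC (SE 0.16, adjusted p = 0.0334) and -0.60 in Nf1-null NSC (adjusted p = 0.175), both against wild-type NSC. Between GSC and Nf1-null NSC the smallest adjusted p values of the list were those of Asf1b (log2 difference 0.89, adjusted p = 0.167), Shmt1 (0.71, adjusted p = 0.267) and Tipin, the partner of Timeless (0.67, adjusted p = 0.286). The origin subunit Orc5 (-0.36, adjusted p = 0.308), the ligase scaffold Cul4a (-0.31, adjusted p = 0.323) and Cdkn1a (0.75, adjusted p = 0.360) followed.

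Genes used to mark proliferation at large followed the same order of groups. Mki67, present in cycling cells in general, had signals of 25120.4, 16698.3 and 17636.9 in GSC, 19171.7, 8110.2 and 9276.7 in Nf1-null NSC, against 8970.8, 887 and 2718 in wild-type NSC, and its 6.99-fold difference in GSC over wild-type NSC did not pass (adjusted p = 0.0644). Top2a, the topoisomerase of G2 and mitosis, rose 5.39-fold (adjusted p = 0.0343), while Cdk1 and Ccna2 were 6.00-fold and 4.81-fold higher and did not pass (adjusted p = 0.0538 and 0.0599). Array 1 was again the highest of each group for all 4 of these genes. Ccnd1, the G1 cyclin induced by growth factors, rose 15.0-fold in GSC over wild-type NSC (adjusted p = 0.00953), with 51781.5, 82143.4 and 77493 in GSC, 35118.6, 37073.2 and 28082.3 in Nf1-null NSC, against 7567.9, 2065.3 and 6189 in wild-type NSC. Its array 1 was the lowest in GSC, unlike that of the replication genes. Differences between genes of S phase and of other cycle phases were not tested.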

How the data were processed

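Affymetrix mouse arrays read biotinylated cRNA of 9 samples, made from 100 ng RNA (labels' protocols). The authors deposited linear intensity values per probe set; the software behind them is not stated in what was used here. Each array's mean without its 2% dimmest and 2% brightest probe sets was 1500, so a difference in total RNA between samples is set aside. Of 45101 probe sets, 64 were controls, and 34945 had exactly 1 gene symbol and gave 18193 genes; the probe set with the highest mean log2 value stood for each gene.

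Values entered as log2(value + 1). A single limma fit (version 3.58.1, R 4.3.3) held the 3 group means of the 9 arrays, moderated by empirical Bayes (1.63 prior and 6 residual degrees of freedom), two-sided tests and Benjamini-Hochberg adjustment over all genes at 0.05. Folds are 2 to the power of log2 differences, so those of dim genes depend on the pseudocount. The fit was also run on simulated arrays in which genes varied independently and changes were added to GSC alone. Genes that move together from array to array, as these did, were not covered by it. The number of arrays, 3 per group, limits the precision of every value.

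The genes, lists and tests were chosen with earlier results of these data known, and counts over a list are descriptions. Named were all listed replication genes, up to 6 of the second list per comparison by smallest adjusted p, the proliferation genes, and Nf1. Ccnb1 was not analysed here. CCAAT and TTTGAA were added to the E2F search later.

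Pairing by replicate number was checked by correlating deviations from group means over the brighter 9097 genes. Same-numbered Nf1-null and wild-type NSC arrays gave 0.64, 0.24 and 0.59, against -0.54 to -0.02 for unlike numbers. Deviations within a group cancel out, so positive values for same numbers push those for unlike numbers down. Over all genes the same-numbered values were 0.13, 0.05 and 0.17. The NSC groups were treated as paired only in the pair differences and in the fits with a replicate block, from the data and not the labels. The main fit, which gave the SEs, intervals and adjusted p-values of single genes, held no pairing. Over the brighter 9097 genes GSC arrays gave 0.30, 0.12 and 0.11 with same-numbered Nf1-null arrays, but unlike numbers reached 0.11 as well. With wild-type NSC they gave 0.24, 0.05 and 0.20, and unlike numbers reached 0.19. A pairing of GSC arrays with either NSC group is thus not shown. Alternatives were other normalizations, probe set summaries, filters, a mean-variance trend, a replicate block, a pseudocount of 16 and left-out arrays. Figures used matplotlib 3.10.9.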

Additional observations from a re-analysis of the deposited data

How the results depend on the processing

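Median differences of the 40 genes moved by less than the spread of array medians (SD 0.47) under every alternative run. With single arrays left out they ranged from 1.61 to 2.12 for GSC over wild-type NSC, from 0.95 to 1.58 for Nf1-null over wild-type NSC and from 0.45 to 0.91 for GSC over Nf1-null NSC, with or without a mean-variance trend. Counts of genes past the threshold depended on the fit. For GSC over wild-type NSC the count was 26, beside 1649 genes in all in either direction, and became 15 in the 6 arrays compared (1030 in all). It ranged from 0 to 25 with an array left out (0 without wild-type array 2 or GSC array 2), beside 214 to 1756 in all. With the trend too it ranged from 26 to 36, beside 1269 to 2907 in all. The replicate block gave 36 (1536 in all). For Nf1-null over wild-type NSC it was 0 (0 in all), and 0 with any single array left out (0 or 1 in all). It was 4 of 34 among the brighter 9097 genes (398 in all) and 3 with the trend (329 in all). The replicate block gave 0 (0 in all), and the replicate block with the trend gave 30 (974 in all). With the trend and an array left out it ranged from 0 to 20. It was 20 without wild-type array 1 (436 in all) and 11 without Nf1-null array 3 (853 in all). For GSC over Nf1-null NSC it was 0 in every fit but the replicate block with the trend, which called 4 (Mcm2, Gins2, Prim1 and Lig1) beside 1133 genes in all. The numbers of GSC arrays are not shown to pair with those of either NSC group.

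No gene changed direction in GSC over wild-type NSC. In Nf1-null over wild-type NSC the mean of all probe sets turned Pola2 to -0.09 and Fen1 to 0.37. With single arrays left out Tyms ranged from -0.35 (without Nf1-null array 1) to 0.62, being -0.16 without wild-type array 2, and Fen1 from -0.36 to 0.13 (without Nf1-null array 2). In GSC over Nf1-null NSC, Ccne1 ranged from -0.01 (without Nf1-null array 2) to 0.53, Rfc5 from -0.10 (without GSC array 1) to 0.39, being -0.08 without Nf1-null array 3, and E2f1 from -0.31 (without GSC array 1) to 0.22, being -0.19 without Nf1-null array 3. E2f1 was -0.17 without array 1 of every group. The trend left these values unchanged, none of them passed, and the cause was not tested.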
